A study of Mus musculus with 4 samples.

Results

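The interferon-stimulated genes described here are 45 mouse genes that type I interferon is known to induce, chosen by symbol. In all, 43 of them stood in both deposited gene tables, out of 13478 genes in both. Zbp1, which encodes a sensor of Z-form nucleic acids, was in the mutant table alone and is given with the mutant values only, and Cmpk2 was not analysed here. The data come from RNA immunoprecipitation (IP) with an anti-Flag antibody and from the matched input RNA. There was 1 library in each of 4 groups: the IP and the input of cells overexpressing Flag-tagged mutant Lin28b, which the labels describe as deficient in RNA binding, and the IP and the input of cells overexpressing Flag-tagged wild-type Lin28b. The cells of all 4 groups are labelled mouse pancreatic cancer-associated fibroblasts, an overexpressing line stands for each construct, and a group of cells without Flag-tagged Lin28b was not used here. With 1 library per group, no difference below has a replicate check, no test between groups was possible, and every value describes single libraries.

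Cells sense viral or misplaced nucleic acid through RNA and DNA receptors and then secrete type I interferon. Interferon binds its receptor on the same or neighbouring cells, and the kinases Jak1 and Tyk2 activate a complex that holds Stat2 and Irf9. That complex binds interferon-stimulated response elements in the promoters of a large gene set whose products sense RNA, stop translation, degrade RNA and modify proteins. Tumour and stromal cells are also known to run this programme without a virus. Lin28b is an RNA-binding protein known for blocking let-7 microRNA maturation.

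Levels are in FPKM, fragments per kilobase scaled to library size, so they may be set against each other between genes. In processed pseudogenes, level times gene length fell on whole multiples of a step for 96.9% to 98.1% of the low values in each library, to within 0.1 of a step, and the commonest multiple between 50 and 160 was 150. Read as 150 covered bases, a single read in 1 kb of RNA is worth between 0.0462 and 0.0538 FPKM, so the lowest levels rest on few reads. The cells expressed epithelial genes and some of the fibroblast markers. Of 8 epithelial markers 6 were in both tables, with summed levels of 1381 FPKM in the mutant input and 2046 in the wild-type input. Of 13 fibroblast markers 6 were in both, with 708 and 820. The fibroblast markers Col1a2, Col3a1, Pdgfrb, Dcn, Lum, Fap and Pdpn were not in both, nor were the epithelial markers Epcam and Cldn4. Of the fibroblast markers, Vim stood at 547 FPKM in the mutant input and 607 in the wild-type input, Sparc at 83.8 and 93.8, and Fn1 at 74.6 and 118, whereas Col1a1 stood at 0.404 FPKM in the mutant input and 0.722 in the wild-type input, Pdgfra at 0.860 and 1.33, and Acta2 at 0.524 and 0.227. Across the epithelial markers Krt18 stood at 441 and 395 FPKM, Krt8 at 494 and 601, Krt19 at 322 and 665, Cdh1 at 114 and 219, Krt7 at 3.32 and 31.7, and Muc1 at 6.77 and 134. These are bulk libraries, in which a change in the share of cells of a type and a change in RNA per cell cannot be told apart. The part of the differences in markers in the results below was not tested. Of 12 macrophage and leukocyte markers, 2 were in both tables, Cd14 and Cd68, with summed levels of 49.2 and 40.8 FPKM. Of 5 plasmacytoid dendritic cell markers, Tcf4 alone was in both, at 9.81 and 10.2 FPKM, and of 5 endothelial markers Eng alone, at 0.298 and 0.115. Lin28b stood at 36.7 FPKM in the mutant IP and 30.01 in the mutant input, against 8.99 in the wild-type IP and 13.8 in its input.

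The first comparison asked how far the cells of the 2 constructs differed in this programme before any IP. All 43 genes were higher in the mutant input than in the wild-type input, 42 of them by at least 2-fold on the scale of level + 1. At that threshold 3.68% of all 13478 genes were higher, and 4.03% were lower, among them 0 of the 43. The median of log2 (mutant input + 1) over (wild-type input + 1) was 3.78 for the 43 genes and 0.03 for all genes. At 4-fold, 34 of the 43 and 1.09% of all genes were higher in the mutant input, and at 16-fold 20 of the 43 and 0.23% of all genes. The genes were chosen with the difference between these inputs known, so these counts describe the members and are no independent evidence. The 43 genes together held 0.904% of the summed level in the mutant IP and 0.829% in the mutant input, against 0.1003% in the wild-type IP and 0.116% in its input. Among wild-type input levels 14 of the 43 stood under 1 FPKM, whereas 0 did in the mutant input, where the lowest was Uba7 at 7.49 FPKM. The levels of the constructs come from tables that the authors normalised separately.

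**Figure D1:**
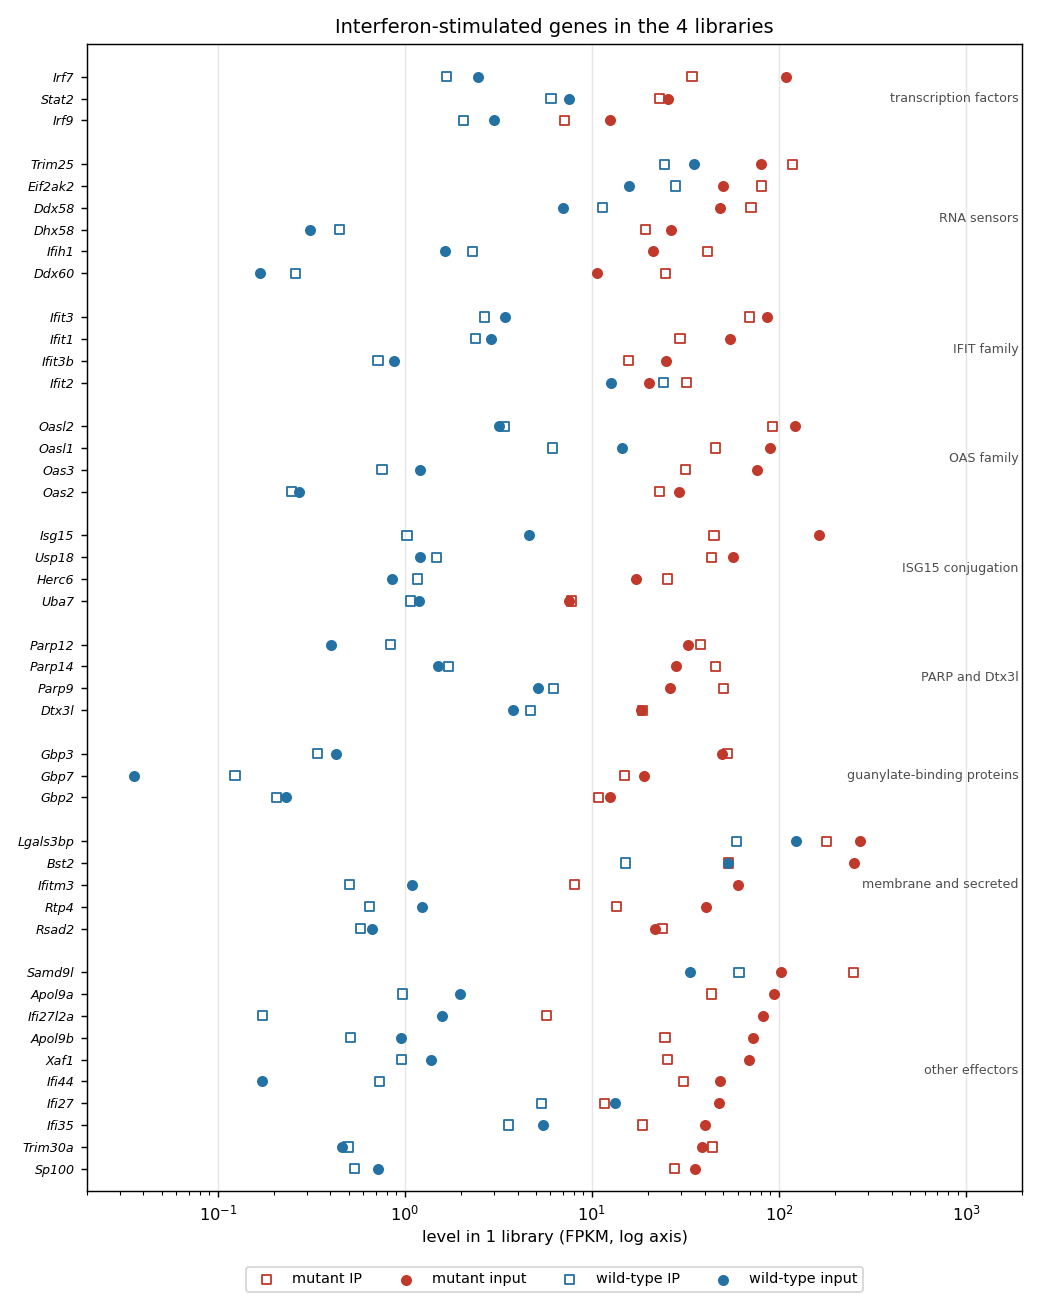
Level of each of the 43 interferon-stimulated genes in each library (FPKM, log axis), grouped by role, with 1 point per library; red marks the mutant and blue the wild type, open squares the IP and filled circles the input. The mutant input lies right of the wild-type input for every gene, from Ifit2 at 20.3 against 12.6 FPKM to Gbp7 at 19.0 against 0.0358 FPKM.

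**Figure D2:**
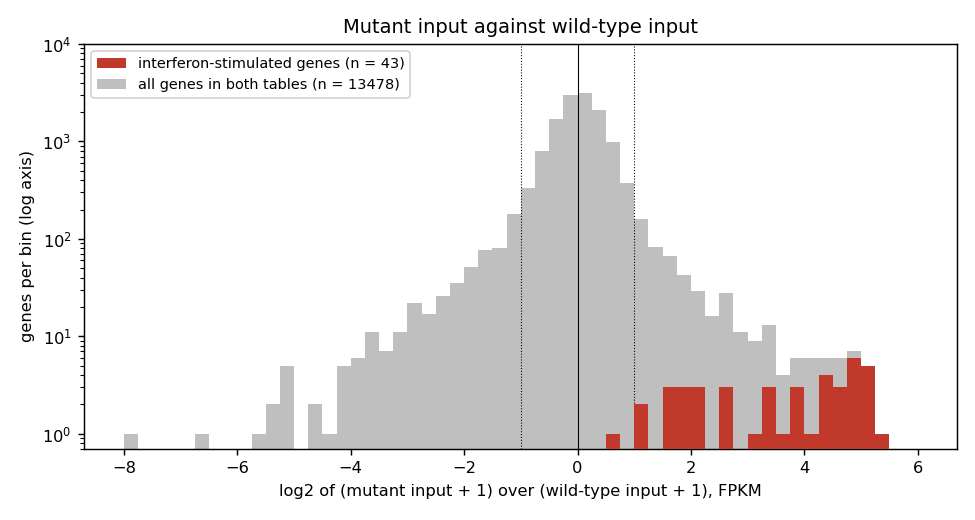
Distribution of log2 (mutant input + 1) over (wild-type input + 1) for the 43 interferon-stimulated genes (red) and for all 13478 genes in both tables (grey), in bins with a log count axis and dotted lines at 2-fold. The 43 genes lie between 0.64 and 5.40, and the median of all genes is 0.03.

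The transcription factors of the pathway differed unequally. Irf7, the factor that amplifies interferon production (chr7:141262706-141266481, GRCm38), stood at 34.3 FPKM in the mutant IP and 109 in the mutant input, against 1.66 in the wild-type IP and 2.45 in its input. Stat2 stood at 23.04 and 25.4 FPKM in the mutant IP and input, against 6.04 and 7.57 in the wild type. Irf9, the DNA-binding subunit of the interferon-activated complex, stood at 7.12 and 12.4 FPKM in the mutant, against 2.05 and 2.98 in the wild type. The log2 difference between inputs was 4.998 for Irf7, 1.62 for Stat2 and 1.76 for Irf9. The span of Irf9 overlaps that of Rnf31 on the same strand, so reads there could have been given to either gene.

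The RNA sensors were higher in the mutant input by log2 differences between 1.16 and 4.39. Ddx58, which encodes RIG-I, the sensor of 5′-triphosphate RNA, stood at 70.8 FPKM in the mutant IP and 48.4 in the mutant input, against 11.4 in the wild-type IP and 6.96 in its input. Ifih1, which encodes MDA5, the sensor of long double-stranded RNA, stood at 41.3 and 21.1 FPKM in the mutant IP and input, against 2.31 and 1.64 in the wild type. Dhx58, which encodes their regulator LGP2, stood at 19.3 and 26.5 FPKM in the mutant, against 0.446 and 0.312 in the wild type. These 3 sensors of one helicase family thus ranged from RIG-I, which stood above 5 FPKM in both inputs, to LGP2, which was under 1 FPKM in the wild type. Ddx60, a helicase gene of the same response, stood at 24.6 and 10.6 FPKM in the mutant, against 0.259 and 0.169 in the wild type. Eif2ak2, which encodes the kinase PKR that stops translation on double-stranded RNA, stood at 80.8 and 50.3 FPKM in the mutant, against 28.03 and 15.7 in the wild type. Trim25, which encodes a ubiquitin ligase that acts on RIG-I, stood at 118 and 79.9 FPKM in the mutant, against 24.4 and 35.2 in the wild type, and its log2 difference between inputs of 1.16 was the smallest of the sensors. Zbp1 stood at 6.35 FPKM in the mutant IP and 25.5 in the mutant input.

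Of the IFIT genes, whose products bind foreign RNA 5′ ends, Ifit1 and Ifit3 were low in the wild type and Ifit2 was not. Ifit3 stood at 69.6 FPKM in the mutant IP and 86.6 in the mutant input, against 2.65 in the wild-type IP and 3.44 in its input. Ifit1 stood at 29.5 and 54.6 FPKM in the mutant, against 2.38 and 2.90 in the wild type. Ifit2 stood at 31.99 and 20.3 FPKM in the mutant, against 24.2 and 12.6 in the wild type, and its log2 difference of 0.64 was the smallest of the 43 and the only one short of 2-fold. Ifit3b, a near copy beside Ifit3, stood at 15.6 and 24.9 FPKM in the mutant, against 0.718 and 0.879 in the wild type. The sources used here do not give how reads shared by Ifit3 and Ifit3b were counted, so the split between them is uncertain.

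Most OAS genes encode enzymes that make the 2′-5′-linked messenger activating RNase L. Oas3 stood at 31.6 FPKM in the mutant IP and 76.2 in the mutant input, against 0.755 in the wild-type IP and 1.21 in its input. Oas2 stood at 22.9 and 29.3 FPKM in the mutant, against 0.247 and 0.270 in the wild type. Both genes thus stood near or above 30 FPKM in the mutant input and near 1 FPKM or below in the wild type. Oasl2 stood at 92.2 and 121 FPKM in the mutant, against 3.42 and 3.19 in the wild type. Oasl1, known in mice to restrain Irf7 translation, stood at 45.9 and 89.6 FPKM in the mutant, against 6.16 and 14.4 in the wild type.

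Isg15, a ubiquitin-like protein, and the enzymes that attach and remove it were all higher in the mutant input. Isg15 itself (chr4:156199455-156200796) stood at 44.9 FPKM in the mutant IP and 163 in the mutant input, against 1.03 in the wild-type IP and 4.63 in its input. Usp18, the protease that removes Isg15 and dampens receptor signalling, stood at 43.7 and 56.8 FPKM in the mutant, against 1.48 and 1.21 in the wild type. Herc6, the mouse ligase for Isg15, stood at 25.3 and 17.2 FPKM in the mutant, against 1.17 and 0.858 in the wild type. The activating enzyme gene Uba7 had the smallest log2 difference of the group, 1.95, with 7.77 and 7.49 FPKM in the mutant, against 1.07 and 1.20 in the wild type. Ube2l6, which encodes the conjugating enzyme between them and was added after its values were seen, stood at 12.4 and 44.1 FPKM in the mutant, against 0.801 and 1.44 in the wild type.

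The ADP-ribosyltransferase genes and Dtx3l, the ligase partner of Parp9, had log2 differences between inputs of 2.005 to 4.58. Parp12 stood at 37.8 FPKM in the mutant IP and 32.6 in the mutant input, against 0.838 in the wild-type IP and 0.402 in its input. Parp14 stood at 45.6 and 28.2 FPKM in the mutant, against 1.71 and 1.51 in the wild type. Parp9 stood at 50.5 and 26.1 FPKM in the mutant, against 6.26 and 5.16 in the wild type, and Dtx3l at 18.6 and 18.3 against 4.68 and 3.80. Parp9 and Dtx3l are neighbours whose spans overlap on opposite strands. The library kit keeps the strand, but the sources used here do not say whether the counting used it.

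The guanylate-binding protein genes, whose products attack membranes around pathogens, were under 1 FPKM in both wild-type libraries. Gbp3 (chr3:142560026-142573209) stood at 53.2 FPKM in the mutant IP and 49.8 in the mutant input, against 0.340 in the wild-type IP and 0.427 in its input. Gbp2 stood at 10.8 and 12.5 FPKM in the mutant, against 0.205 and 0.231 in the wild type. Gbp7 stood at 14.9 and 19.0 FPKM in the mutant, against 0.124 and 0.0358 in the wild type, the last of which is below the value of a single read in 1 kb. The span of Gbp7 overlaps that of Gm43802 on the same strand, so reads there could have been given to either gene.

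Among genes of membrane and secreted proteins, Bst2 and Lgals3bp were abundant in both inputs and Ifitm3, Rtp4 and Rsad2 in the mutant input alone. Bst2, which encodes tetherin, a protein that holds budding virus at the cell surface, stood at 53.7 FPKM in the mutant IP and 252 in the mutant input, against 15.1 in the wild-type IP and 53.2 in its input. Lgals3bp, a secreted galectin-binding glycoprotein, stood at 179 and 271 FPKM in the mutant, against 59.2 and 123 in the wild type, a log2 difference between inputs of 1.14. Ifitm3, which blocks viral entry at endosomes, stood at 8.10 and 60.2 FPKM in the mutant, against 0.505 and 1.10 in the wild type. Rtp4, named as a receptor transporter, had the longest span of this group, and Rsad2 encodes viperin, an enzyme that makes a chain-terminating nucleotide. Rtp4 stood at 13.5 and 40.5 FPKM in the mutant, against 0.648 and 1.23 in the wild type. Rsad2 stood at 23.7 and 21.6 FPKM in the mutant, against 0.581 and 0.670 in the wild type.

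On the scale of level + 1, Ifi44 had the highest log2 difference between inputs, mutant over wild type, among all 13478 genes. Ifi44 encodes a cytoplasmic interferon-response protein (chr3:151730922-151749960). It stood at 30.8 FPKM in the mutant IP and 48.5 in the mutant input, against 0.730 in the wild-type IP and 0.173 in its input, a log2 difference between inputs of 5.40. The next on that scale were Apol9b, Gbp3, Oas3 and Apol9a, with 5.23, 5.15, 5.13 and 5.01. The order depends on the pseudocount: with 0.01 in place of 1, Gbp7 stood above Ifi44, at 8.69 against 8.05. Apol9a and Apol9b are near copies of 1 apolipoprotein L gene. Apol9a stood at 43.5 and 94.5 FPKM in the mutant, against 0.975 and 1.96 in the wild type, and Apol9b at 24.6 and 72.4 against 0.512 and 0.955. The split between these copies is uncertain for the same reason as that of Ifit3 and Ifit3b.

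Among the other effectors the log2 difference between inputs ran from 1.59 to 5.40. Ifi27l2a, a small hydrophobic protein gene, stood at 5.69 FPKM in the mutant IP and 82.3 in the mutant input, against 0.173 in the wild-type IP and 1.59 in its input. Xaf1, which encodes a partner of the apoptosis inhibitor XIAP, stood at 25.4 and 68.9 FPKM in the mutant, against 0.958 and 1.39 in the wild type. Trim30a, a mouse regulator of inflammatory signalling, stood at 43.99 and 38.5 FPKM in the mutant, against 0.496 and 0.461 in the wild type. Sp100, a nuclear body component, was at a similar distance, with 27.5 and 35.6 FPKM in the mutant and 0.537 and 0.717 in the wild type. At the small end of the group, Samd9l, an antiviral translation inhibitor, stood at 249 and 102.04 FPKM in the mutant, against 61.1 and 33.3 in the wild type. Ifi27 stood at 11.7 and 47.6 FPKM in the mutant, against 5.38 and 13.2 in the wild type, and Ifi35 at 18.7 and 40.0 against 3.57 and 5.50. Their log2 differences between inputs were 1.59 for Samd9l, 1.78 for Ifi27 and 2.66 for Ifi35.

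The promoters of these genes are shown because the members stood higher together and many interferon-stimulated genes are known to carry a common element. RefSeq promoter windows (GRCm38.p6, 250 bases before to 50 after the start site) existed for 36 of the 45 genes, as 43 windows. The core of the interferon-stimulated response element was searched as GAAANNGAAA on both strands, TTTCNNTTTC being its form on the other strand. It was found in 19 of the 36 genes, 52.8% against 3.99% of all genes with a window. By window the share was 51.2%, against 3.44% of all 32851 windows and 3.14% of windows of genes in both tables. Of the 19, Ddx58, Eif2ak2, Ifih1 and Ifitm3 had 0 matches in the 250 bases before the start site taken for each gene. Their matches lie elsewhere in their windows. The longer GAAANNGAAANNGAAA, which contains the core, was found in 5 of the 36 genes, Apol9a, Apol9b, Bst2, Gbp3 and Isg15, which is 13.9% of them against 0.133% of all genes with a window. The core of the gamma-activated site, TTCNNNGAA, which reads the same on both strands, was found in 6 of the 36 genes, 16.7% against 9.55% of all genes with a window. The 200 bases before the start site are printed for the 5 genes with the longer motif, for Ifit1, Ifit3 and Ifit3b with a pair of cores, and for Ifi44, the gene with the highest difference between inputs, which has 0 exact matches in its 250 bases before the start site. Only exact matches were counted. The Ifi44 sequence holds tttcagttttcgtttc, in which TTTC recurs at spacings other than that of the core. A count of 0 therefore does not show that a gene lacks the element. Each runs 5′ to 3′ along the strand of the gene, with matches to GAAANNGAAA on either strand in capitals.
Isg15, chr4:156200819-156201018, minus strand: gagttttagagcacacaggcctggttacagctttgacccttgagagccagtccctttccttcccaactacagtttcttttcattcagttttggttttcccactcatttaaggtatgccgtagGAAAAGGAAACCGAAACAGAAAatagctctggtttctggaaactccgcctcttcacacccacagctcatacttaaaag
Bst2, chr8:71537473-71537672, minus strand: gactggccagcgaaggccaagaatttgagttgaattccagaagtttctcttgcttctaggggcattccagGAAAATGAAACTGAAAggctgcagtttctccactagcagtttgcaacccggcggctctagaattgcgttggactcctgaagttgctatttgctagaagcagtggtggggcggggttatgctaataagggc
Gbp3, chr3:142559844-142560043, plus strand: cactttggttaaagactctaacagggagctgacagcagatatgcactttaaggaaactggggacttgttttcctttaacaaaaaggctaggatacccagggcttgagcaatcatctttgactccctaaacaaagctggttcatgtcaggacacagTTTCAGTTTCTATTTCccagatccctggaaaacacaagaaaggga
Apol9a, chr15:77411081-77411280, minus strand: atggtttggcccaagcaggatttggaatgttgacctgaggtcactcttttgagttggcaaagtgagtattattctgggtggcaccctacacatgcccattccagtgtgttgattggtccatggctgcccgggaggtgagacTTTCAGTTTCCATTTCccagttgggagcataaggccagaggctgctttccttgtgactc
Apol9b, chr15:77728872-77729071, plus strand: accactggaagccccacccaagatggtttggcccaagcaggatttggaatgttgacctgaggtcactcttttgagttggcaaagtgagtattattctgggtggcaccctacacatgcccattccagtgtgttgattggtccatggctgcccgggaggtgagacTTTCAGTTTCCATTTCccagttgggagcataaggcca
Ifit1, chr19:34640689-34640888, plus strand: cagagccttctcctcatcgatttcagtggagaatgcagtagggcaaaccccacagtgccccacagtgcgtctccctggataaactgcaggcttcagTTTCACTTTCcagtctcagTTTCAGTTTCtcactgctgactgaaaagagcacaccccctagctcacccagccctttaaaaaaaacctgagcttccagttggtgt
Ifit3, chr19:34583329-34583528, plus strand: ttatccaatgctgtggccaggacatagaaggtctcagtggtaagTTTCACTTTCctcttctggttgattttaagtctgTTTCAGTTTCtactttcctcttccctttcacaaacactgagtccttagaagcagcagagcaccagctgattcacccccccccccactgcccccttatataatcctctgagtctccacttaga
Ifit3b, chr19:34607757-34607956, plus strand: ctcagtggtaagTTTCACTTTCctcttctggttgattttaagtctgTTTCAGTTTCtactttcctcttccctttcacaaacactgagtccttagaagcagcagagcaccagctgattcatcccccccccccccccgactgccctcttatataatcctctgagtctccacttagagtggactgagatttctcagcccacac
Ifi44, chr3:151749911-151750110, minus strand: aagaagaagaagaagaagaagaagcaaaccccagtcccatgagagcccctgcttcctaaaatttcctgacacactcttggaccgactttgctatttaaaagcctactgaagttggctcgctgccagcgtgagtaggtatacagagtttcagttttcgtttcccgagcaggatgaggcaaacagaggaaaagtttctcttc

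In Isg15 the matches start 78, 72 and 66 bases before the start site, in Bst2 130 and 124, and in Gbp3 45 and 39. Ifit1 holds its cores 104 and 85 bases before the start site, and Ifit3 156 and 122. Apol9a and Apol9b share a run of 178 identical bases within these 200, and Ifit3 and Ifit3b a run of 119, whereas the longest run shared by Ifit1 and Ifit3 is 13. A match is a stretch of letters in the window, and occupancy of these promoters was not measured.

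The genes around the members were taken from lists of the same pathway. Of the 10 listed interferon genes 0 were in both tables and 0 were in the mutant table. All 6 receptor chains were in both, 0 of them 2-fold different between inputs. Ifnar1 stood at 16.1 FPKM in the mutant input and 20.4 in the wild-type input, Ifnar2 at 21.0 and 26.6, and the interferon gamma receptor genes Ifngr1 at 73.0 and 112.7 and Ifngr2 at 33.9 and 53.7. The interferon lambda receptor gene Ifnlr1, at 6.95 and 13.1, had the largest absolute difference of this list, a log2 value of −0.83. All 6 receptor chains were thus lower in the mutant input, short of 2-fold, with log2 values from −0.83 to −0.018. For all genes the lower quartile of this log2 value was −0.25.

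Of 9 measured JAK-STAT and IRF genes, 2 passed 2-fold upward in the mutant input and 0 downward. Among the higher genes Irf5, a transcription factor gene, had 1.56 FPKM in the mutant input against 0.222 in the wild type. The kinase gene Jak2, at 21.96 FPKM against 40.3, and Irf1, at 31.9 against 21.2, were short of 2-fold. Of 18 measured genes of nucleic acid sensing, 6 were higher and 0 lower. Tlr3, the endosomal sensor of double-stranded RNA, stood at 15.1 FPKM in the mutant input and 1.22 in the wild-type input, Trex1, a DNA-degrading enzyme gene, at 4.74 and 0.371, Adar, which edits double-stranded RNA, at 41.4 and 14.3, and Cgas, the cytosolic DNA sensor, at 4.29 and 0.968. The adaptor Mavs and the kinase Tbk1 differed little between inputs, with 13.3 against 13.9 FPKM for Mavs and 14.6 against 13.4 for Tbk1. Of 10 negative regulators 0 were 2-fold different in either direction on the scale of level + 1. Members were left out of that list, among them Usp18, which had a log2 difference between inputs of 4.71. The largest differences of that list were those of Ptpn2 at 18.6 and 10.3 FPKM, Usp25 at 22.5 and 13.5, Tnfaip3 at 18.8 and 28.8, and Rnf125 at 0.727 and 0.177.

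Of 48 measured interferon-stimulated genes outside the 45, 31 passed 2-fold upward in the mutant input and 1 was lower, with a median log2 difference of 1.63. Oas1a stood at 41.96 FPKM in the mutant input and 0.660 in the wild-type input, Oas1g at 19.1 and 0.164, and the chemokine gene Cxcl10 at 77.6 and 5.12. The 1 lower gene was Ly6e, which encodes a surface protein that blocks coronavirus entry, at 0.0335 FPKM in the mutant IP and 0.174 in the mutant input, against 41.2 in the wild-type IP and 114 in its input. Of 14 measured interferon gamma and guanylate-binding genes, 11 were higher and 0 lower, with a median log2 difference of 2.102. In this list the GTPase gene Igtp stood at 22.4 FPKM in the mutant input against 0.518 in the wild type, Irgm2 at 20.4 against 0.506, Tgtp1 at 12.5 against 0.259, and Tgtp2 at 7.67 against 0.480. The spans of Igtp and Irgm2 overlap, and Tgtp1 and Tgtp2 are near copies, so the split within each pair is uncertain. The background for these counts is the same 3.68% higher and 4.03% lower of all genes.

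The second comparison asked how much of each RNA the anti-Flag IP recovered. IP over input was taken as log2 of (IP + 0.01) over (input + 0.01) within each construct. Its median over the 43 genes was −0.37 in the mutant and −0.28 in the wild type, against −0.59 and −0.28 over all genes. At 2-fold, 2 of the 43 were enriched in the mutant IP and 12 were lower, where 5.99% of all genes were enriched and 37.1% lower. For the wild-type IP the counts were 3 enriched and 8 lower, where 7.74% of all genes passed upward and 21.7% downward. The shares of the 43 were 4.65% and 27.9% in the mutant and 6.98% and 18.6% in the wild type, each below the share of all genes on this uncentred scale. With the authors' q-value under 0.05 also required, in the authors' deposited tables, the counts were 2 enriched and 12 lower in the mutant, where 5.48% and 35.8% of all genes passed, and 3 and 8 in the wild type, where 7.03% and 20.4% did. Centred on the median of all genes, the counts of enriched and lower genes became 10 and 6 in the mutant and 6 and 4 in the wild type. The shares of all genes after centring are not given here, so the centred counts have no background and cannot be set against the shares above.

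Recovery ordered the 43 genes much alike in both constructs, with a Spearman correlation of 0.773 between the ratios, against 0.555 across 11260 protein-coding genes. Ifi27l2a had the lowest ratio of the 43 in each, a log2 of −3.85 in the mutant and −3.13 in the wild type. In the mutant the next were Ifitm3 at −2.89, Bst2 at −2.23, Ifi27 at −2.03 and Isg15 at −1.86. In the wild type these 4 stood at −1.11, −1.82, −1.29 and −2.16, and Oasl1 at −1.23. Zbp1 had a log2 ratio of −2.01 in the mutant.

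At the top in the mutant were Samd9l and Ddx60, the 2 genes enriched there, with log2 ratios of 1.29 and 1.21, followed by Ifih1 at 0.97, Parp9 at 0.95 and Parp14 at 0.69. In the wild type Samd9l stood at 0.88, Ddx60 at 0.59, Ifih1 at 0.49, Parp9 at 0.28 and Parp14 at 0.18. The 3 genes enriched in the wild type were Ifi44 at 2.02, Gbp7 at 1.54 and Parp12 at 1.04, each with a wild-type input between 0.0358 and 0.402 FPKM, and in the mutant they stood at −0.66, −0.34 and 0.21. With a pseudocount of 1 the count of enriched genes in the wild type was 0. Among the 11 members at 5 FPKM or more in all 4 libraries, Ifit2 and Samd9l had the highest wild-type ratios, 0.93 and 0.88.

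**Figure D3:**
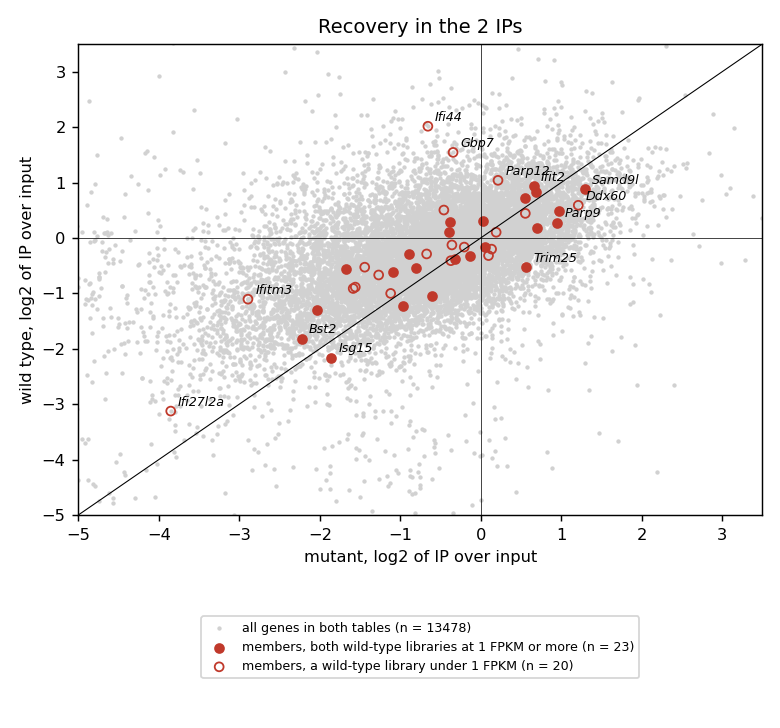
Log2 of IP over input in the mutant (x axis) and in the wild type (y axis), 1 point per gene, for all 13478 genes (grey; genes beyond the axes are not drawn) and the 43 interferon-stimulated genes (red, open where a wild-type library is under 1 FPKM). The line marks equal ratios; Ifi44 and Gbp7 lie farthest above it and Trim25 farthest below it among the red points.

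The difference of the 2 ratios, mutant minus wild type, had a median of −0.23 over the 43 genes and −0.32 over all genes. It was above 0 for 17 of the 43, or 39.5%, where it was above 0 for 36.8% of all genes. At least 2-fold above was 1 gene, Trim25, with a difference of 1.10, where 7.37% of all genes were. At least 2-fold below were 4 genes, Ifi44 at −2.67, Gbp7 at −1.89, Ifitm3 at −1.79 and Irf7 at −1.11, where 26.1% of all genes were. The distance between constructs was of like size in the IPs: the median of log2 (mutant IP + 1) over (wild-type IP + 1) was 3.60, and 41 of the 43 were at least 2-fold higher in the mutant IP, where 5.55% of all genes were. Ifit2 at 0.39 and Ifi27 at 0.99 were the 2 exceptions.

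Recovery followed the span of the gene. Across the 43 genes the Spearman correlation of gene span with the log2 ratio was 0.715 in the mutant and 0.621 in the wild type, and across 11260 protein-coding genes it was 0.541 and 0.380. The points of each correlation share 1 pair of libraries, and genes are not independent replicates. Among 15 members under 10 kb the mutant median of the log2 ratio was −1.12 and the wild-type median −0.89, among 11 members of 10 to 20 kb −0.36 and −0.17, and among 17 members of 20 kb or more 0.55 and 0.28. Protein-coding genes in the same classes had medians of −1.44 and −0.79, −0.74 and −0.41, and −0.09 and 0.01. Isg15 spans 1.34 kb and Ifi27l2a 1.51 kb, whereas Ddx60 spans 110 kb and Ifih1 50.5 kb. Rtp4, with a span of 93.9 kb in the tables, departed from this order, at −1.59 and −0.91, and its span overlaps Gm45338 on the same strand and Masp1 on the other. Transcript length was not measured, and its part in the recovery was not tested. The difference between inputs had a correlation with span of −0.21 across the 43 genes and 0.01 across protein-coding genes.

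**Figure D4:**
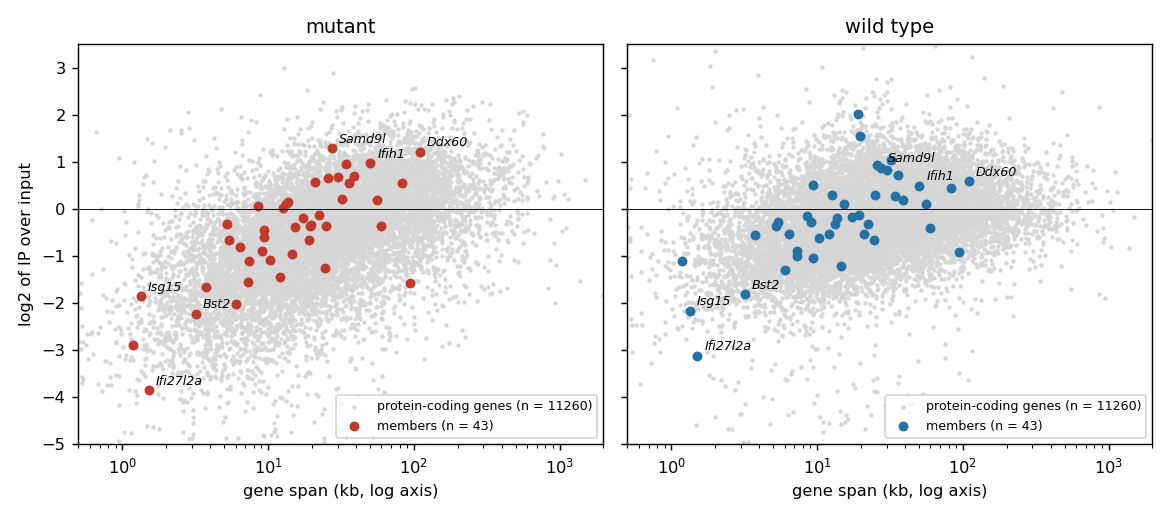
Log2 of IP over input against gene span (kb, log axis) in the mutant (left) and in the wild type (right), for the 43 interferon-stimulated genes (coloured) and 11260 protein-coding genes (grey; genes beyond the axes are not drawn). Ifi27l2a and Isg15, under 2 kb, lie at the low end in both panels and Samd9l, Ddx60 and Ifih1 at the high end of the mutant panel.

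The third comparison asked which of these RNAs carried called peaks. In the mutant list 15 of the 43 genes carried 75 peaks, and in the wild-type list 4 genes carried 15. Of all genes, 18.6% carried a peak of the mutant list and 25.1% of the wild-type list. The members' share was 34.9% in the mutant and 9.30% in the wild type. A peak needs reads, and the levels in the IP differed: members with a mutant peak stood at 18.6 to 249 FPKM in the mutant IP, and members with a wild-type peak at 11.4 to 61.1 FPKM in the wild-type IP. Members without a peak overlapped these ranges, at 5.69 to 179 FPKM in the mutant IP and 0.124 to 59.2 in the wild-type IP. Among genes at 5 FPKM or more in the IP concerned, 15 of 43 members and 33.5% of all genes carried a mutant peak, and 4 of 11 members and 40.7% of all genes a wild-type peak. At matched level floors the members' shares, 34.9% and 36.4%, lay near those of all genes, but span was not matched. Without a floor, 0 of 15 members under 10 kb, 3 of 11 of 10 to 20 kb and 12 of 17 of 20 kb or more carried a mutant peak. Protein-coding genes in these classes did so in 75 of 2752, 221 of 2310 and 2171 of 6198 cases. For wild-type peaks the counts were 0, 0 and 4 members, and 301, 481 and 2529 protein-coding genes.

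The 4 genes with peaks in both lists were Samd9l, Eif2ak2, Ddx58 and Ifit2, and in each of them at least 1 mutant peak overlapped a wild-type peak on the same strand. In all, 7 of the 13 mutant peaks of these genes overlapped a wild-type peak. Of the 15 wild-type peaks, 10 overlapped a mutant peak. The shares of all peaks that overlap between the lists are not given here, so these counts have no background. The folds given for peaks are the authors' own. In Samd9l a mutant peak of 5117 bases (chr6:3372299-3377415, fold 2.05) covered all 4 wild-type peaks, of which the strongest had a fold of 3.42 (chr6:3373698-3376729). A further mutant peak of 243 bases with a fold of 10.1 (chr6:3399330-3399572) lay at the 5′ end of the gene, 0.428% along its span, and overlapped 0 wild-type peaks. In Ddx58 the peak at chr4:40228094-40228293 was called with the same bounds in both lists, with a fold of 2.97 in the mutant and 4.56 in the wild type. Ifit2 carried its strongest peak near the 3′ end in both, with folds of 2.68 (chr19:34575057-34575986) in the mutant and 3.84 (chr19:34574942-34576219) in the wild type.

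Eif2ak2 was the one gene with more wild-type than mutant peaks apart from Samd9l, 7 against 5. Its strongest wild-type peaks, with folds of 5.34 (chr17:78865393-78865611) and 5.23 (chr17:78858587-78858826), overlapped 0 mutant peaks. Its strongest mutant peak, with a fold of 3.87 (chr17:78855163-78855410), overlapped a wild-type peak with a fold of 1.56. A further mutant peak of 207 bases (chr17:78863983-78864189, fold 2.22) lay wholly within a wild-type peak with a fold of 2.73. The calls of this gene thus coincided in part between the lists, and its log2 ratio was close, 0.68 in the mutant and 0.83 in the wild type. With 1 library per group, a peak called in 1 list alone was not tested as a difference.

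The other 11 genes carried peaks in the mutant list alone. The share of all genes with a peak in that list alone is not given here, so this count has no background. Ddx60 carried 15, with folds of 2.73 to 18.8, the strongest at the 3′ end (chr8:62036870-62037398) and the next, with a fold of 13.9, at chr8:61945711-61945939. Ifih1 carried 14, the strongest with a fold of 10.3 (chr2:62607014-62607280), Parp14 12, Parp9 and Trim25 6 each, Herc6 3 and Rsad2 2. Dtx3l, Gbp3, Parp12 and Trim30a carried 1 each. In the wild-type IP these 11 genes stood at 0.259 to 24.4 FPKM, and of them Trim25 and Parp9 stood above 5 FPKM there, at 24.4 and 6.26. Of the 75 mutant peaks of members, 33.3% had their summit in the last 10% of the gene span, and of all mutant peaks in genes 29.4%. For wild-type peaks the shares were 46.7% of 15 and 37.03%. The median fold was 3.18 for members and 4.18 for all genes in the mutant list, and 2.75 and 3.73 in the wild-type list. On the strand opposite to a member, 1 peak was found, in the wild-type list within the span of Rtp4, where it lay on the strand of Masp1, with a fold of 8.93 (chr16:23520617-23520816).

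**Figure D5:**
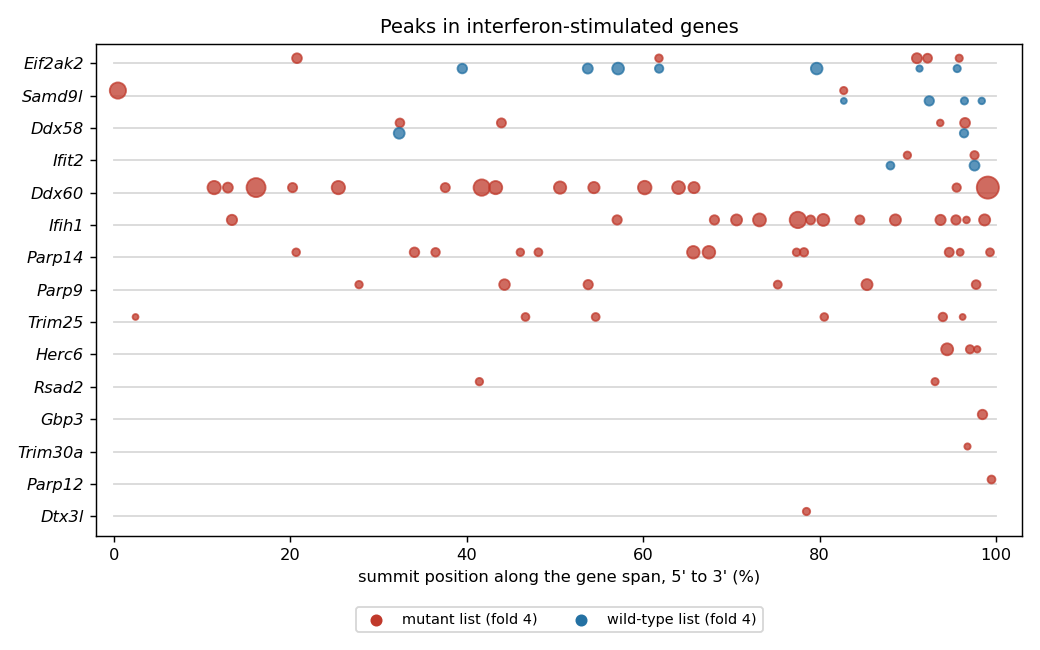
Summit positions of the called peaks along the span of each of 15 interferon-stimulated genes, 5′ to 3′ in percent of the span, with mutant peaks in red above wild-type peaks in blue and the area of a point in proportion to the authors' fold. The 75 mutant peaks fall in 15 genes, most of them in Ddx60, Ifih1 and Parp14, and the 15 wild-type peaks in 4.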

How the data were processed

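The authors' 2 deposited gene tables gave 1 level per gene for an IP and its input; the file headers name no unit, and the deposited levels were read as FPKM from the values. Per the file headers, the deposited log2 ratio, p-value and q-value compare 2 libraries by a test that the sources used here do not name; the log2 ratios used were computed from the levels and differ from the deposited ones by at most 1.57e-09. The authors deposited a narrowPeak file for each IP, whose peaks carry a strand, a score, a fold (a ratio), −log10 of p and of q, and a summit. Tools named in the submitters' processing notes are bedtools, HOMER 4.11.1, MACS2 2.2.7.1 and HISAT2 2.1.0, and the builds are mm10 and GRCm38, with no role given.

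Symbols stand in the mutant table and were carried by gene identifier to the wild-type table, giving 13478 genes in both. The spans of 44 of 44 members overlapped those of RefSeq GRCm38.p6. Calls used a fold of 2 with pseudocounts of 1 (inputs, IPs) and 0.01 (IP over input). A peak went to each gene whose span held its summit on the same strand. Functions were tested on simulated data (Python 3.11.15, pandas 2.3.3, scipy 1.17.1). The members, lists and naming rule were chosen with earlier results of these data known; the rule names all members, and up to 4 genes of each pathway list with the largest absolute difference between inputs. A gene that this rule names is not reported here. Ube2l6, Mavs, Tbk1 and Ifnar1 were named after their values were seen. Alternatives were other pseudocounts, scalings, level filters and peak rules. No genome sequence was used, so peak sequences are not shown.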

Additional observations from a re-analysis of the deposited data

Results flagged for a closer look

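The log2 ratio of IP over input had opposite signs in the 2 constructs for 9 of the 43 genes, or 20.9%, against 28.4% of all genes, and with 1 library per group this difference was not tested. Mutant minus wild type, it was 1.10 for Trim25, 0.42 for Gbp3, 0.34 for Rsad2 and 0.21 for Uba7, which were above 0 in the mutant and below 0 in the wild type. It was −0.49 for Oasl2, −0.66 for Usp18, −0.96 for Dhx58, −1.89 for Gbp7 and −2.67 for Ifi44, which were below 0 in the mutant and above 0 in the wild type. After centring each construct on the median of all genes, 6 of these 9 had the same sign in both, namely Dhx58, Gbp7, Oasl2, Rsad2, Uba7 and Usp18, while Gbp3, Ifi44 and Trim25 still had opposite signs. On that scale Ifit3, Sp100 and Stat2 joined them, making 6 of the 43, or 14%, against 31% of all genes. A wild-type library was under 1 FPKM for 5 of the 9: Gbp3, Rsad2, Dhx58, Gbp7 and Ifi44. Trim25 stood at 24.4 FPKM or more in all 4 libraries.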

How the results depend on the processing

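The count of 42 higher and 0 lower members in the mutant input was the same under every pseudocount, rescaling, centring and level filter tried, and 34 and 0 at 4-fold. The median log2 difference between inputs moved with the pseudocount, to 4.99 with 0.01, 4.82 with 0.1 and 2.35 with 5, to 4.52 with both inputs rescaled to the same sum, which also raises the levels against the pseudocount, and to 3.76 after centring. In the pathway lists, an alternative added after the data were seen, the higher genes among negative regulators became 1, from 0, with a pseudocount of 0.01 or 0.1 or with rescaling, and those of JAK-STAT and IRF signalling 1, from 2, with a pseudocount of 5. That pseudocount also gave 4 higher sensing genes, from 6, 26 other interferon-stimulated genes, from 31, and 9 interferon gamma and guanylate-binding genes, from 11. The ratio of IP over input depended more on the choice. Centring turned the mutant median to 0.22 and the median difference to 0.083, took the wild-type median to −0.0051, and gave 10 enriched and 6 lower members in the mutant and 6 and 4 in the wild type. These centred counts have no share of all genes beside them. With a pseudocount of 0.1, 1 member was enriched in the wild type, the wild-type median was −0.26 and the median difference −0.26. With a pseudocount of 1, 0 members were enriched in the wild type, the medians were −0.36 in the mutant and −0.0903 in the wild type, and the difference was −0.25. For the 11 members at 5 FPKM or more in all 4 libraries, a filter added after the data were seen, the mutant median turned to 0.55 and the wild-type median was −0.32, with 1 enriched and 2 lower in the mutant and 0 and 4 in the wild type. The shares of all genes under that filter are not given here, so the counts among these 11 cannot be read as a change. Counts of members with peaks ranged from 12 to 15 in the mutant list and from 3 to 5 in the wild-type list. The shares of all genes under the other peak rules are not given here, so that range has no background. No single member that was 2-fold different changed sign under any of these alternatives. Beyond the steps above, the causes were not tested. No paired analysis was possible because each group has 1 library. Read depth limits the lowest wild-type values.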
